A study of Mus musculus with 6 samples.

Results

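Cytotoxic lymphocyte genes were followed in the colon of Islr knockout mice. The set holds 10 genes, named by a fixed list of symbols, out of 23462 genes that the probes of the array could be matched to. The list comprises the granule genes Gzma, Gzmb, Prf1 and Nkg7, the receptor genes Klrd1 and Klrk1, the secreted factors Ifng and Ccl1, and the T cell surface genes Cd8a and Itgae. The list is by name and applies no threshold to measured values. The 10 genes were covered by 11 probes, 1 each except Cd8a, which had 2.

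The study measured colon RNA from 3 control mice and 3 mice carrying a knockout of Islr, a secreted protein of the stroma, with 1 single-colour Agilent array per animal. All 6 animals were male. The sample source states that each had received 3.5% dextran sulfate sodium (DSS), a polysaccharide that injures the colon lining, in the drinking water for 5 days, and had then recovered for 1 day. Another label field gives no treatment, and the design text says that the colon samples were separated by flow before lysis, without naming a gate. The labels do not say how Islr was deleted, in which cells, or on which strain background. All arrays lay on 1 slide, with the controls in 1 row and the knockouts in the other, so that genotype and slide row cannot be told apart.

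Cytotoxic lymphocytes, which are CD8 T cells, natural killer (NK) cells and part of the intraepithelial lymphocytes of the gut, kill target cells by releasing granules. Perforin opens a path into the target, and granzymes, a family of serine proteases, then cleave proteins inside it. In the colon such cells lie within and just below the epithelium, where they meet stressed or infected epithelial cells. They also secrete interferon gamma, which raises antigen presentation in neighbouring cells.

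The stretches of 250 bases before the transcription start of Gzma and Gzmb are given here. This pair was singled out after its values were seen. The distance between their readings on the same array, described further on, separated the genotypes, although neither gene did so on its own. Such a separation was found for 30.6% of the 36 pairs of tested cytotoxic genes, against 40.1% of all pairs of tested genes. Both stretches are taken from RefSeq on GRCm38.p6 and are written 5′ to 3′ along the gene. The Gzma stretch is chr13:113100982-113101231 on the minus strand and the Gzmb stretch is chr14:56262335-56262584 on the minus strand. Capitals mark matches to a RUNX motif or an AP-1 motif.
Gzma: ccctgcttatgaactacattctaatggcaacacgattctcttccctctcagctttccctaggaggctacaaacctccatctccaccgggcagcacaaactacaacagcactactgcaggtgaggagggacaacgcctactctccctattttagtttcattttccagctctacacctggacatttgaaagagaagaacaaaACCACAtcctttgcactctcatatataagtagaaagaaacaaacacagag
Gzmb: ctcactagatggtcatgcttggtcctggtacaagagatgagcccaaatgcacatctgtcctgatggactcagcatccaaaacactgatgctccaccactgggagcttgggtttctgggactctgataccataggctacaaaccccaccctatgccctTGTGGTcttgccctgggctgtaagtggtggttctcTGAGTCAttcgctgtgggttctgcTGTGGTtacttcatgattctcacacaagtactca
The RUNX motif, TGTGGT, is the core recognised by the RUNX factors of lymphocytes, and the AP-1 motif is TGANTCA. Gzma held 1 RUNX match, on the opposite strand and beginning 50 bases before the start. Gzmb held 2 RUNX matches, beginning 93 and 34 bases before the start, and 1 AP-1 match, beginning 58 bases before it. Motifs were searched on both strands, together with GGTGTG for T-box factors, AGGAAG for ETS factors and TTCNNNGAA for STAT factors. TGTGGT and GGTGTG can overlap each other. Such a stretch was found in the RefSeq table for 8 of the 10 genes, and the RUNX motif lay in 5 of those 8, against 14.0% of 32851 stretches of the same length. The AP-1 motif lay in 1 of the 8, against 6.75% of all stretches. The T-box motif lay in 1 (16.3% of all), the ETS motif in 2 (29.5%) and the STAT motif in 2 (7.02%). For Prf1 and Klrk1, which are among the genes with a RUNX match, the start used was not the outer edge of the gene. A match is a run of letters and not a shown binding site.

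Every value in the following is the log2 of the processed signal minus the 75th percentile of its own array, so that 0 is a spot as bright as that percentile. Signals of different probes are not comparable in level. Islr itself, which checks the labels, read 1.57 (an outlier spot), 1.24 and 1.21 on the control arrays and -1.40, -0.93 and -1.31 on the knockout arrays, listed here and below in the order of replicates 1, 2 and 3. It was 5.42-fold lower in the knockouts (log2 difference -2.44, SE 0.21, adjusted p 0.0171 in limma's moderated test, 2 control values). The call was lost without knockout replicate 3 (adjusted p 0.0580 in limma). Without control replicate 2 or 3 Islr had too few usable control values to be tested. Replicate numbers only name the animals. The p-values of limma set a difference against the spread between arrays, 1 per animal, moderated over all probes. The 75th percentile itself ran from 4910.5 to 7110.5 intensity units, and 69.4% to 75.4% of spots were well above background. Spots marked as outliers by the scanner software made up 13.6% of control replicate 1 and 16% of knockout replicate 1 and 3.26% to 9.05% of the others. These were treated as missing.

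None of the cytotoxic genes changed past the threshold. In the fit over 35351 probes, 9 of the 10 genes could be tested, all 9 above background on all 6 arrays, and 0 had an adjusted p under 0.05. Over all tested probes 3.97% passed, and over all 16451 tested genes 3.82% passed by their brightest probe. With 9 genes a count of 0 therefore lies near that share. At an unadjusted p under 0.05, limma gave 1 of the 9, Klrk1, against 28.2% of all genes. Differences were lower in the knockout for 3 genes, Gzmb, Klrd1 and Klrk1, and higher for 6, against 48.8% lower among all genes. Their median log2 difference was 0.20 and that of all genes was 0.01. The groups did not overlap for 3 of the 9, Klrk1 and Klrd1 being lower and Cd8a higher, while 38.2% of all genes showed no overlap. In RNA from a mixture of cells, fewer cells of a type and less RNA per cell cannot be told apart.

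**Figure D1:**
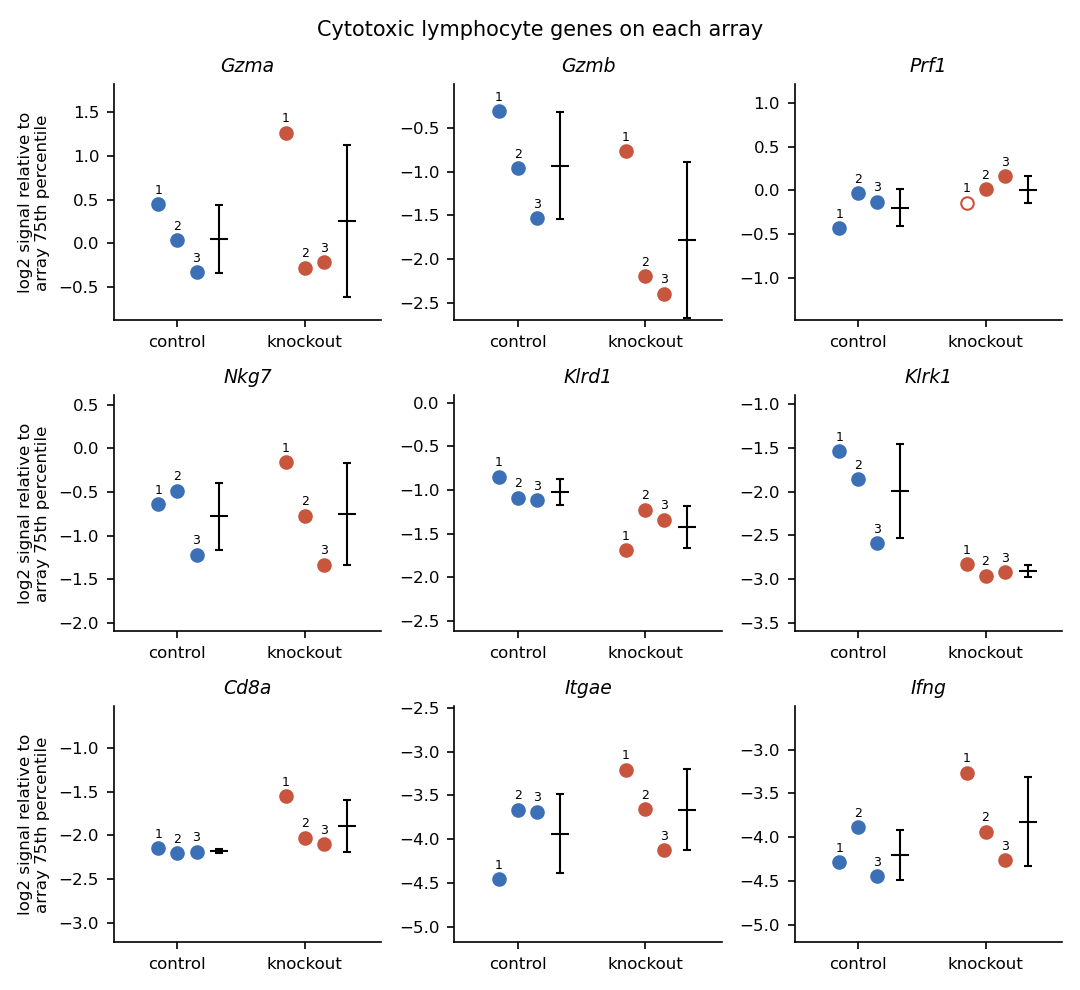
Log2 signal minus that of the 75th percentile of the same array (vertical axis) of the 9 tested cytotoxic genes, with 1 point per array, control in blue and knockout in red, numbered by replicate. Bars give the mean ± SD (n = 3 per group, outlier spot included), the open circle is an outlier spot, and every panel spans the same range of log2 units. The knockout values of Klrk1 lie close together between -2.96 and -2.83, and knockout replicate 1 is highest for Gzma, Nkg7, Cd8a, Itgae and Ifng.

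Of the granule genes, Gzma and Gzmb varied most among animals of 1 genotype. Gzma encodes granzyme A, a tryptase of the granule. It read 0.45, 0.04 and -0.33 in the controls and 1.26, -0.28 and -0.22 in the knockouts. The high value belonged to knockout replicate 1 alone, and the other knockouts lay between the lowest control and the middle one. Knockouts differed from controls by 0.20 on average (SE 0.45, 95% interval -0.86 to 1.27, adjusted p 0.801 in limma). Without knockout replicate 1 it was -0.30, so that 1 animal set its direction.

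Gzmb encodes granzyme B, the protease that cleaves after aspartate and starts apoptosis in the target. Its readings were -0.31, -0.96 and -1.53 in the controls and -0.77, -2.20 and -2.40 in the knockouts. The groups overlapped, since knockout replicate 1 lay above control replicates 2 and 3, while the other knockouts lay below every control. The log2 difference was -0.85 (SE 0.50, 95% interval -2.05 to 0.34, adjusted p 0.320 in limma), a 1.81-fold lower mean. Without knockout replicate 1 it was -1.36 with an adjusted p of 0.130 in limma, and without control replicate 1 it was -0.54. When arrays were weighted by their quality, Gzmb was called (-1.10, adjusted p 0.0483 in limma), in a fit that called 9292 of 35351 probes.

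Prf1, the gene of the pore protein perforin, was among the steadiest. It read -0.44, -0.03 and -0.13 in the controls and 0.01 and 0.16 in knockout replicates 2 and 3. In knockout replicate 1 the spot was an outlier, at -0.14. Knockout replicates 2 and 3 lay above every control, and the outlier spot lay among the controls. The log2 difference was 0.28 (SE 0.20, 95% interval -0.21 to 0.78, adjusted p 0.412 in limma, 2 knockout values), and 0.21 with the outlier spot included (exact permutation p 0.3).

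Nkg7, which encodes a membrane protein of cytotoxic granules, read -0.64, -0.48 and -1.22 in the controls. In the knockouts it read -0.16, -0.77 and -1.33. Each genotype spanned more than the distance between the means, and the knockouts held both the highest and the lowest array. The means differed by 0.03 (SE 0.34, 95% interval -0.79 to 0.84, adjusted p 0.970 in limma), and it turned to -0.27 when knockout replicate 1 was dropped and to -0.19 when control replicate 3 was.

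Within single arrays, Gzma and Gzmb kept a steady distance that differed by genotype. Gzma minus Gzmb was 0.76, 1.00 and 1.20 log2 units in the controls and 2.03, 1.92 and 2.18 in the knockouts. The means were 0.99 ± 0.22 and 2.04 ± 0.13 (SD, n = 3 each), so that the distance was 1.06 log2 units wider in the knockouts, and the groups were 0.71 apart at their nearest. Gzmb was thus lower relative to Gzma in each of the 3 knockouts, including knockout replicate 1, in which both were high for that genotype. After normexp correction and quantile normalization the difference was 0.98, again with no overlap. This pair had the widest separation of the 36 pairs among the 9 genes and was singled out after its values were seen, so it is given as a description. Of the 36 pairs, 11 (30.6%) did not overlap, against 40.1% of all pairs of tested genes. The sequences before the 2 genes, shown above, differ in the AP-1 match and in the number of RUNX matches. Whether these letters bear on the distance was not tested.

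**Figure D2:**
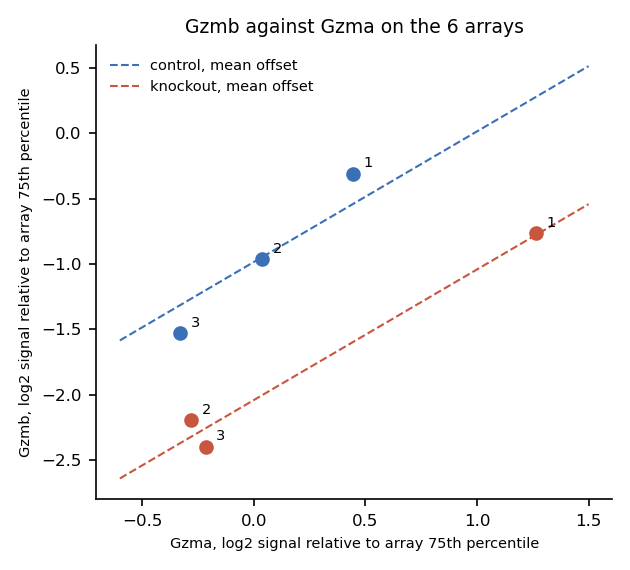
Gzmb against Gzma, each as log2 signal minus that of the array's 75th percentile, for each of the 6 arrays, with control in blue and knockout in red. Each dashed line has a slope of 1 and is placed at its group's mean distance, and the 3 knockouts lie to the right of and below the control line (mean distance 2.04 against 0.99).

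The receptor genes Klrk1 and Klrd1 were both lower in the knockouts without passing the threshold. Klrk1 encodes NKG2D, an activating receptor for stress ligands on NK and CD8 T cells. It read -1.54, -1.86 and -2.59 in the controls and -2.83, -2.96 and -2.92 in the knockouts. The controls were spread over 1.05 log2 units, whereas the knockouts were within 0.13 of each other and all lay below every control. In intensity units the controls were 2188, 1958 and 1086 and the knockouts 691, 747 and 763. The log2 difference was -0.91 (SE 0.28, 95% interval -1.57 to -0.25), a 1.88-fold lower mean, with an unadjusted p of 0.0144 and an adjusted p of 0.09998 in limma. Among all tested genes 14.5% were lower at an unadjusted p under 0.05. Leaving out each array in turn gave differences from -1.20 to -0.68. With array weights Klrk1 was called (-0.92, adjusted p 0.0284 in limma), as were 9292 of 35351 probes.

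Klrd1 encodes CD94, which pairs with NKG2 proteins to form inhibitory or activating receptors for a nonclassical class I molecule. It read -0.85, -1.09 and -1.12 in the controls and -1.69, -1.23 and -1.34 in the knockouts. Every knockout was below every control, as for 19.2% of all genes, and the nearest arrays of the groups were control replicate 3 and knockout replicate 2. This came to a log2 difference of -0.40 (SE 0.18, 95% interval -0.84 to 0.04, adjusted p 0.217 in limma). It was -0.18 with control replicate 1 and knockout replicate 1 both left out, the arrays with the most outlier spots.

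The partners of these receptors gave no called difference. Hcst, which encodes DAP10, the adaptor through which NKG2D signals, differed by 0.06 (SE 0.23, adjusted p 0.897 in limma). Its groups overlapped, at -0.50, -0.03 and -0.30 in the controls and 0.12, -0.18 and -0.60 in the knockouts, and its sign turned without control replicate 1 (-0.05) or knockout replicate 1 (-0.11). Klrc1, which encodes the NKG2A partner of CD94, was not well above background on any array, at 32.7 to 122 intensity units, and was not tested. Klrc2 had no probe that could be matched.

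The secreted factors gave no called difference. Ifng encodes interferon gamma, the main macrophage-activating cytokine of these cells. It read -4.29, -3.89 and -4.45 in the controls and -3.26, -3.94 and -4.26 in the knockouts. Only knockout replicate 1 lay above every control. The log2 difference was 0.39 (SE 0.29, 95% interval -0.32 to 1.09, adjusted p 0.439 in limma) and 0.11 without that animal. Its signal was 2.46 to 4.33 times the lowest signal counted as well above background on the same array.

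Ccl1, a chemokine of activated T cells, was not well above background on any array. Its signal was 24.7, 24.6 and 23.6 intensity units in the controls and 56.0, 24.99 and 24.96 in the knockouts, so it was not tested. The lowest signal counted as well above background was 116.5 to 122.5 units. Its receptor gene Ccr8 was above background on 2 control and 2 knockout arrays, at 85.5 to 173 units, and was not tested either.

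The T cell surface genes gave no called difference either. Cd8a encodes the alpha chain of the CD8 co-receptor. By its brighter probe it read -2.15, -2.20 and -2.19 in the controls and -1.55, -2.03 and -2.10 in the knockouts. The controls were within 0.05 of each other and all knockouts lay above them, knockout replicate 1 by far the most. The log2 difference was 0.29 (SE 0.19, 95% interval -0.16 to 0.74, adjusted p 0.370 in limma), and 0.12 without knockout replicate 1. The other Cd8a probe read 138, 176 and 103 intensity units in the controls and 139, 67.3 and 44.1 in the knockouts. It was above background on 2 control arrays and 1 knockout array, was not tested, and did not separate the groups. Cd8b1, the beta chain found mainly on conventional CD8 T cells, differed by 0.00 (SE 0.20, adjusted p 0.995 in limma).

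Itgae encodes CD103, the integrin alpha chain by which intraepithelial lymphocytes hold on to E-cadherin. It read -4.46, -3.66 and -3.69 in the controls and -3.21, -3.65 and -4.13 in the knockouts. The groups overlapped and the lowest array was a control. On average the knockouts were 0.27 higher (SE 0.32, 95% interval -0.49 to 1.03, adjusted p 0.618 in limma), and -0.22 with control replicate 1 and knockout replicate 1 both left out. Itgb7, the beta chain that pairs with CD103, differed by 0.34 (SE 0.18, adjusted p 0.283 in limma), and its dimmer probe by -0.28 (adjusted p 0.620). Cdh1, the gene of E-cadherin, had outlier spots on 5 arrays and was not tested. With those spots included it read 1.94, -0.18 and 1.65 in the controls and 2.72, 2.41 and 2.65 in the knockouts.

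The precision of 3 animals a group set what these tests could show. The 95% interval excluded a 2-fold fall for 7 of the 9 tested genes, all but Gzmb and Klrk1. It excluded a 2-fold rise for 6, all but Gzma, Itgae and Ifng, and it excluded both for 4, Prf1, Nkg7, Klrd1 and Cd8a. The highest scaled value of the 6 arrays was that of knockout replicate 1 for 5 of the 9 genes and that of control replicate 1 for 3, Gzmb, Klrd1 and Klrk1. These are the arrays with the most outlier spots, and their part in the differences was not tested beyond leaving them out. Without both of them 6 of the 9 genes were lower, Gzma, Nkg7 and Itgae joining the 3 named above, and 0 were called by limma.

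**Figure D3:**
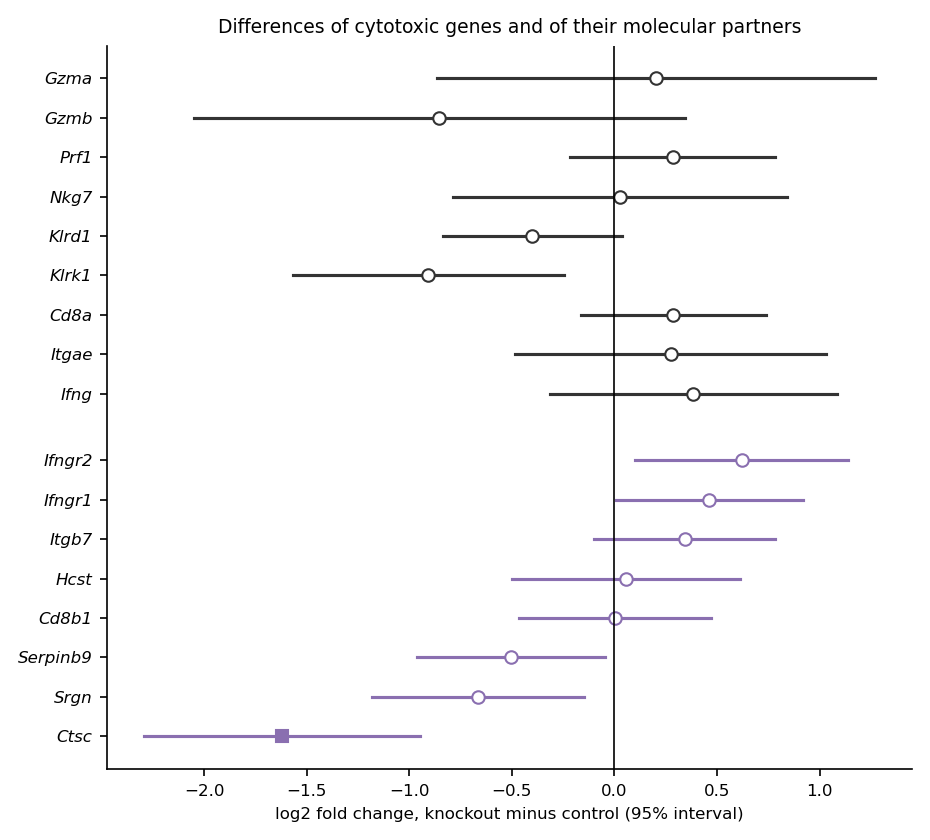
Log2 fold change, knockout minus control (horizontal axis), with limma's 95% interval, for the 9 tested cytotoxic genes (dark) and for 8 tested molecular partners (purple). Open circles did not pass an adjusted p of 0.05 and the filled square did, and Ctsc at -1.62 is the filled one. The interval of Klrk1 runs from -1.57 to -0.25, the only one of the cytotoxic genes that leaves out 0.

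Beyond the set, called genes included Ctsc and Stx11. Of 20 other granule and death ligand genes 16 were tested, 8 were lower and the median was 0.01. By their brightest probe Ctsc and Stx11 passed, both lower, against 3.82% called among all genes. At an unadjusted p under 0.05 limma gave 7 of the 16, 6 lower and 1 higher. Among all genes 28.2% passed that p, and 14.5% were lower at it. Ctsc encodes cathepsin C, which removes the propeptide of granzymes and of neutrophil and mast cell serine proteases. It read 0.18, 0.23 and 0.20 in the controls and -1.996, -0.89 and -1.37 in the knockouts, with no overlap. It fell by 1.62 log2 units (SE 0.28, adjusted p 0.0395 in limma), while a dimmer probe differed by -1.37 and was not called (adjusted p 0.0612). Stx11 encodes syntaxin 11, needed for granule release in lymphocytes. It read 0.10, 0.59 and 0.25 in the controls and -1.91, -0.91 and -1.05 in the knockouts, and fell by 1.604 (SE 0.30, adjusted p 0.0440 in limma), with a second probe at -1.76 (adjusted p 0.0319). The call of Ctsc was lost in limma on leaving out any array other than knockout replicate 2 (adjusted p 0.0506 to 0.111). That of the brighter Stx11 probe was lost in limma on leaving out any array other than control replicate 1 and knockout replicate 2 (adjusted p 0.0614 to 0.125).

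Other partners of granzymes did not pass. Srgn, the proteoglycan serglycin that packs granzymes in the granule, differed by -0.66 (SE 0.22, adjusted p 0.114 in limma). Serpinb9, the serpin that inhibits granzyme B, differed by -0.51 (SE 0.19, adjusted p 0.155 in limma). Both had lower values on every knockout array than on any control array, as did 19.2% of all genes. With array weights Srgn was called (-0.73, adjusted p 0.0240 in limma), as were 9292 of 35351 probes. Srgn, Ctsc and Stx11 are also expressed by myeloid cells. On these arrays the neutrophil markers moved in the same direction, with 6 of 8 tested markers called lower and 2 higher. Their summed signal was 28.1 to 29.4 times the 75th percentile in the controls and 18.6 to 20.3 in the knockouts. Bright probes weigh most in such a sum. The median log2 value of the 8 markers was 1.30 to 1.77 on the control arrays and -3.22 to -2.10 on the knockout arrays. The macrophage markers summed to 25.9 to 34.2 in the controls and 21.9 to 25.2 in the knockouts, with 0 of 9 called and 4 lower at an unadjusted p under 0.05 in limma. The part of these cells in the granule genes was not tested.

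Few genes of the lymphocytes themselves were called. For the lists below, the shares over all genes were 3.82% called and 48.8% lower. At an unadjusted p under 0.05 in limma the share was 28.2%. Counts of 0 called in lists this small lie near the first share. Of 20 T cell receptor and pan-T genes 19 were tested, 14 were lower, the median was -0.24 and 0 were called by limma. At an unadjusted p under 0.05 limma gave 2, Trat1, a T cell receptor adaptor (1.11, p 0.0154), and Cd28, the costimulatory receptor (-0.77, p 0.0426). Dropping knockout replicate 3 moved this median to -0.0045, and dropping control replicate 1 moved it to -0.47. The 9 tested T cell markers of 10, of which 8 were lower and 0 called by limma, summed to 4.50 to 9.54 times the 75th percentile in the controls and 4.44 to 8.69 in the knockouts. The 5 tested NK cell markers of 7, of which 2 were lower and 0 called by limma, summed to 0.445 to 0.504 in the controls and 0.378 to 0.570 in the knockouts. These sums overlapped between the genotypes. Of the NK markers, Klrc1 was not well above background on any array.

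Among 14 tested NK receptors and adaptors of 20 listed, 7 were lower and 0 were called by the brightest probe. Klrg1, an inhibitory receptor of effector lymphocytes, was called by its dimmer probe, which read -2.83, -3.02 and -3.19 in the controls and -4.56, -3.97 and -3.96 in the knockouts. This probe fell by 1.15 (SE 0.22, adjusted p 0.0446 in limma), and the brighter one differed by -1.28 (adjusted p 0.0671). The call was lost in limma when any of the arrays was left out in turn (adjusted p 0.0581 to 0.130). Of 9 ligands of NKG2D and NKG2A, 3 were tested and 0 called by limma, with 1 at an unadjusted p under 0.05, Raet1e (1.17, p 0.0259), next to H60b (-1.28, p 0.149).

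Of 12 lymphocyte transcription factors 10 were tested, 8 were lower, the median was -0.42 and 0 were called by the brightest probe. Nfil3, needed for NK cell development and used widely in myeloid cells, was called by another probe, at 0.94, 1.28 and 1.36 in the controls and -1.08, 0.07 and -0.31 in the knockouts. This probe fell by 1.63 (SE 0.31, adjusted p 0.0446 in limma) and the brightest differed by -1.50 (adjusted p 0.0648). The call was lost in limma on leaving out any array other than control replicate 1 and knockout replicate 2 (adjusted p 0.0656 to 0.126). Among 13 tested residency and gut homing genes of 17 listed, 7 were lower and 0 were called. The lowest unadjusted p in limma were those of Klf2 (-0.75, p 0.0294), which keeps lymphocytes circulating, and of Cxcr6 (0.40, p 0.0505), a receptor of tissue-resident lymphocytes.

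A list of 7 genes linked to activated or exhausted T cells, drawn as inhibitory receptors, holds the receptors Pdcd1, Ctla4, Lag3, Havcr2 and Tigit, the ectonucleotidase Entpd1 and the transcription factor Tox. All 7 had lower means in the knockouts, against 48.8% of all genes. Their median difference was -1.19 and limma called 0. Alternatives called up to 5 of them, as with array weights, which called 9292 of 35351 probes. Of the same probes, normexp and quantile normalization called 2773 and median scaling 2249, with 2 of the 7 genes in each. At an unadjusted p under 0.05 limma gave 4, all lower, against 14.5% lower at that p among all genes. The lowest p belonged to Entpd1 (-1.48, SE 0.30, p 0.00206, adjusted p 0.0507), and to Ctla4 (-1.31, SE 0.32, p 0.00483, adjusted p 0.0659). Entpd1 is also expressed by endothelium, whose markers summed to 13.2 to 14.3 times the 75th percentile in the controls and 4.63 to 9.43 in the knockouts, and its part in this value was not tested.

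Genes around interferon gamma went in several directions. Of 19 inducers and receptors 17 were tested, 9 were lower and 1 passed. At an unadjusted p under 0.05 limma gave 5 of the 17, 4 higher and 1 lower. Among all 16451 tested genes 28.2% passed that p, and 2247 were higher at it. Il18rap, the accessory chain of the interleukin 18 receptor, was well above background on all 3 control arrays and on no knockout array. It therefore entered the test through the controls alone, and was not tested when detection on all arrays was required. It was at least 2.07-fold lower in the knockouts, the bound being set by the dimmest probe that still counted as detected on each knockout array. Its adjusted p of 0.0218 in limma belongs instead to the measured difference of -2.57, which uses undetected knockout signals of 26.8 to 66.0 units. With normexp and quantile normalization the difference was -1.18 (adjusted p 0.0200 in limma). In limma its call was lost without control replicate 2 (0.0635), control replicate 3 (0.0549) or knockout replicate 3 (0.0624). The receptor chains of interferon gamma read higher without passing, Ifngr1 by 0.46 (SE 0.19, adjusted p 0.183) and Ifngr2 by 0.62 (SE 0.22, adjusted p 0.133) in limma. With array weights Ifngr2 was called (0.65, adjusted p 0.0319 in limma), as were 9292 of 35351 probes.

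Of 28 interferon gamma response genes 22 were tested, 19 were higher and 3 lower, the median was 0.37, and 1 was called. At an unadjusted p under 0.05 limma gave 8 of the 22, all higher. Among all 16451 tested genes 2247 were higher at that p, and 28.2% passed it in either direction. The called gene was Ido1, a tryptophan-degrading enzyme, higher by 2.56 (SE 0.41, adjusted p 0.0413 in limma, 2 control values). It read 2.24, 2.39 and 1.90 in the knockouts and -1.02 and 0.26 in control replicates 2 and 3. Control replicate 1 was an outlier spot at 2.39. With that spot included the groups overlapped and the difference was 1.63 (adjusted p 0.234 in limma). The call was also lost in limma without knockout replicate 1 (0.0973), knockout replicate 2 (0.0622) or knockout replicate 3 (0.0890). Without control replicate 2 or 3 Ido1 had too few usable control values to be tested. Colon epithelium, which can express interferon gamma response genes, had marker sums of 20.5 to 66.0 times the 75th percentile in the controls and 73.9 to 99.1 in the knockouts, with 10 of 10 tested markers higher and 0 called by limma (2 at an unadjusted p under 0.05). Its part in these values was not tested.

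Of 13 lymphocyte chemokines and receptors 11 were tested, 8 were lower, against 48.8% of all genes, and 2 were called, Ccl3 and Ccl4, against 3.82%. At an unadjusted p under 0.05 limma gave 6 of the 11, 5 lower and 1 higher. Among all genes 28.2% passed that p, and 14.5% were lower at it. Ccl3 and Ccl4 are made by activated cytotoxic lymphocytes and also by neutrophils and macrophages. Ccl3 read 0.36, -0.29 and 0.11 in the controls and -2.25, -2.35 and -2.71 in the knockouts (adjusted p 0.0156 in limma). Ccl4 read 0.64, 0.14 and 0.33 by its brighter probe in the controls and -1.98, -2.35 and -1.96 in the knockouts (adjusted p 0.0105 in limma). The differences were -2.49 for Ccl3 and -2.46 for Ccl4, both with no overlap between the groups. The call of Ccl3 was lost in limma without control replicate 3 (0.0514) or knockout replicate 3 (0.0528). That of the brighter Ccl4 probe was kept under all alternatives run, and that of the dimmer one (-2.37, adjusted p 0.0156) was lost without control replicate 3 (0.0521) or knockout replicate 3 (0.0528).

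**Figure D4:**
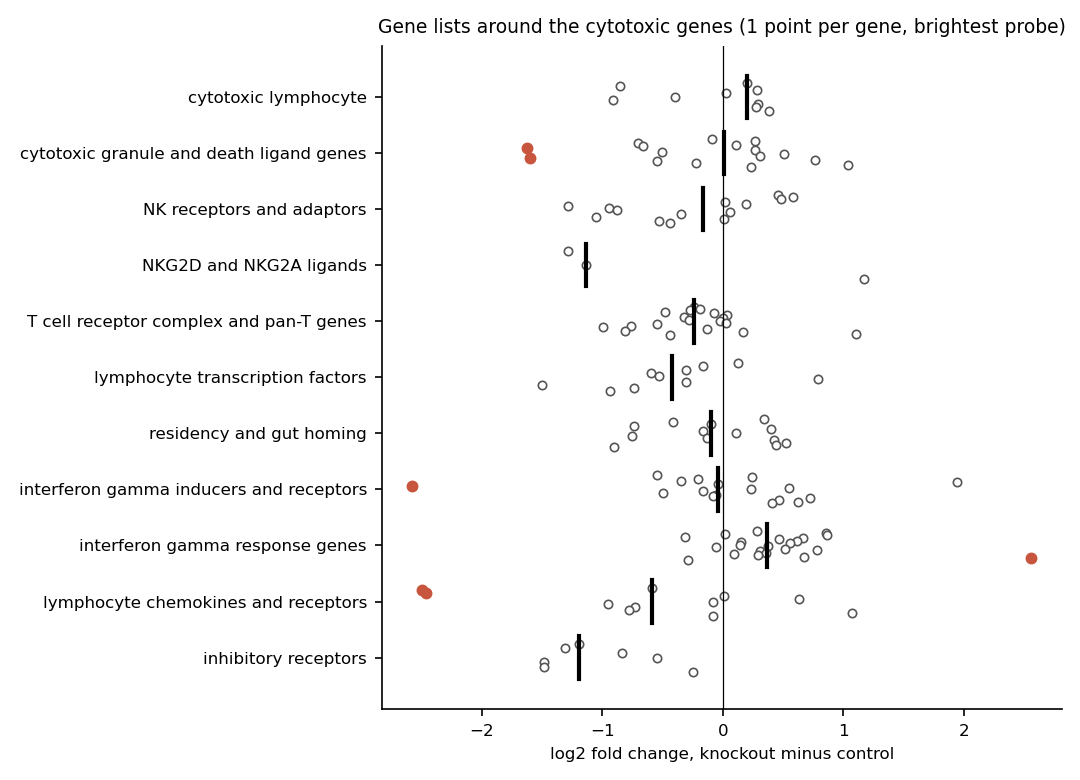
Log2 fold change, knockout minus control (horizontal axis), of each tested gene by its brightest probe, in the cytotoxic set and in 10 lists of related genes (rows). Filled points passed an adjusted p of 0.05 in limma and black bars are medians, with the cytotoxic set at 0.20, the interferon gamma response genes at 0.37 and the inhibitory receptors at -1.19.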

How the data were processed

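Groups were taken from the genotype in the labels. The deposited scanner files hold the red channel alone, although the labels name Cy3 and a green signal. They were made by Agilent Feature Extraction 11.5.1.1, per the file headers, whereas the submitters' processing notes give 10.7. The deposited processed signal is a background-subtracted intensity on a linear scale without scaling between arrays, per the file headers. It was converted to log2, the 75th percentile over the 59305 non-control spots of the array was subtracted, and outlier spots were set missing. The deposited value table also holds these intensities and served as an alternative.

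A probe was tested if well above background on all 3 arrays of a group, with at least 2 usable values in each group. Genotypes were compared two-sided by limma 3.58.1 (lmFit, then eBayes; R 4.3.3) in a model of genotype alone, and p-values were adjusted by Benjamini-Hochberg across 35351 probes at 5%. The procedure was tested on simulated data with 200 changed probes. It recovered 9.09% of changes of 1 log2 unit and 85.8% of those of 2 or more. Of its 129 calls 8 were false. The simulated noise was independent and alike on every array, and the 200 changed probes were fewer than the 1403 called in the data. These rates therefore need not hold for the fit reported here. The smallest exact permutation p for 3 against 3 is 0.1, and the number of arrays limits the precision. Probes were named through RefSeq accessions (GRCm38.p6), which matched 59.7% of 56605 probes. The files place probes on mm9, and no coordinates from them are given. The 2 upstream stretches carry RefSeq's GRCm38.p6 coordinates.

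The genes and lists were chosen with earlier results of these data known. Named genes were the 10 set members with all probes, Islr, fixed partners, list genes with a called probe and, where a list had none, its 2 lowest p. The brightest tested probe stood for a gene. Alternatives were normexp (offset 50) with quantile normalization, median scaling, outlier spots kept, other filters on dim probes, array weights, the value table, the mean over probes and leaving out each array. Leaving out control replicate 1 and knockout replicate 1 together, the list counts under every alternative and the granzyme pair after normexp were chosen after seeing the data.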

Additional observations from a re-analysis of the deposited data

How the results depend on the processing

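The number of called probes, 1403, was 2773 with normexp and quantile normalization, 2249 with median scaling, 484 with no filter on dim probes and 9292 with array weights, and 40 to 2114 when each array was left out in turn. Of the 9 tested cytotoxic genes, 0 were called under every alternative except array weights. That fit called 2, Gzmb and Klrk1, and 9292 of all 35351 probes. The count lower in the knockout, 3, was 6 with array weights, 6 with both arrays of most outlier spots left out, and 3 to 5 when each array was left out in turn.

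With array weights the sign turned for Gzma (-0.056), Nkg7 (-0.34), Itgae (-0.13), Cd8b1 (-0.11) and Hcst (-0.24). With control replicate 1 and knockout replicate 1 both left out, it turned for Gzma (-0.10), Nkg7 (-0.20), Itgae (-0.22), Cd8b1 (-0.19) and Hcst (-0.22). Leaving out each array in turn gave -0.30 to 0.47 for Gzma, -0.27 to 0.32 for Nkg7, -0.18 to 0.10 for Cd8b1 and -0.11 to 0.25 for Hcst. The cause was not tested. Gzmb, Prf1, Klrd1, Klrk1, Cd8a and Ifng kept their direction under all alternatives that gave a value. Ifng did so only narrowly, at 0.0033 with array weights and 0.065 with control replicate 1 and knockout replicate 1 both left out. With no filter on dim probes, which tests more probes, Ctsc, Stx11, Klrg1, Nfil3 and Ido1 were no longer called (adjusted p 0.0502 to 0.0689 in limma). No scaling moved the median of all genes by over 0.1. Over the alternatives, 9 to 17 pan-T genes were lower (18 to 20 tested), and 6 to 12 NK receptor genes (13 to 19 tested). Of the interferon gamma response genes 2 to 5 were lower (14 to 27 tested). Array weights called 3 of 19, 5 of 14 and 7 of 22 of them, in the fit that called 9292 of 35351 probes.

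No paired analysis was possible because the labels give the animals no shared replicate numbers. Ifng and Itgae lay within 5 times the detection limit on every array, and Ccl1 lay below it.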
